A study of Rattus norvegicus with 2 samples.

Results

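The mitosis and G2/M genes are 40 rat genes whose products drive cells from the end of DNA replication through chromosome segregation to division. A gene was included when a non-control probe on both arrays carried a RefSeq mRNA accession of it. That rule found 27 probes for 26 of the 40 genes, out of 13862 genes named on the array. Of these 26, 23 were well above background on both arrays and are called measured below. The 14 members with no matched probe were Cdc25c, Bub1b, Nek2, Melk, Cenpe, Cenpf, Birc5, Kif11, Ckap2, Ckap2l, Anln, Ect2, Top2a and Mki67. Their expression was not analysed here, and they enter only the promoter counts below.

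The RNA came from neural stem cells of the hippocampus of Sprague-Dawley rats at postnatal day 3, grown to passage 3 in serum-free medium with bFGF, the growth factor that keeps such cells dividing. One group was exposed for 6 h to 2.4% sevoflurane, an inhaled anaesthetic, and the other for 6 h to 0% sevoflurane (the control), and per the protocol both were then kept for 24 h under normal culture with 5% CO2. The titles name only 6 h, so the time of harvest is uncertain. There was 1 single-colour array per group, so no difference below has a replicate check or a p-value, and it is not stated whether an array holds 1 culture or a pool.

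Entry into mitosis is switched on when Cdk1 binds cyclin B and is relieved of its inhibitory phosphates. Aurora and Polo-like kinases then build the spindle, kinetochores attach chromosomes to its microtubules, and a checkpoint holds back the anaphase-promoting complex, a ubiquitin ligase, until every chromosome is attached. Transcripts of these genes accumulate in G2 and mitosis and are low in resting cells, so they are widely used to read how much of a culture is dividing. Many of their promoters share the cell cycle homology region (CHR), bound by the DREAM and MMB complexes, and CCAAT boxes, bound by NF-Y.

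Promoters of 35 of the 40 members were present in the RefSeq table (GRCr8), each running from 250 bases before to 50 after the gene's start. Kif2c had more than 1 entry, of which the first was used, and Ccna2, Aurkb, Ube2c, Tpx2 and Racgap1 had none. The CHR core TTTGAA, searched on both strands, was in 25 of the 35 (71.4%), against 18.3% of all 33469 promoters of that length. CCAAT, also on both strands, was in 26 (74.3%), against 37.5%. Both occurred in 20 members (57.1%), against 7.41% of all promoters. TTTAAA, a relative of the CHR core that reads the same on both strands, was in 12 members (34.3%), against 13.6%, and TTTCGCG, an E2F-type motif, in 2 (5.71%), against 0.819%. A further CHR variant, TTCGAA, was in 2 (5.71%), against 1.69%. Not every variant was more frequent in members: CTTGAA, another CHR variant, was in 3 (8.57%), against 14.0%, and TTTGGCG, the other E2F-type motif, in 0, against 1.45%. The matches of TTTGAA and CCAAT shared bases in 2 places.

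The 6 promoter stretches are shown to let the letters be read beside the expression values: the last 150 bases before the start of the 3 measured members lowest and the 3 highest on the sevoflurane array relative to control, among those with a promoter entry. Capitals mark TTTGAA and CCAAT on either strand (TTCAAA and ATTGG on the other). Prc1, Plk1 and Mad2l1 are the lowest, and Pttg1, Ndc80 and Bub1 the highest.
Prc1: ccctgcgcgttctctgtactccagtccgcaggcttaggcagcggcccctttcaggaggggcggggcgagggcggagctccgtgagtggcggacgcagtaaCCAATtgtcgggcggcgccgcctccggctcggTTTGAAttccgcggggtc
Plk1: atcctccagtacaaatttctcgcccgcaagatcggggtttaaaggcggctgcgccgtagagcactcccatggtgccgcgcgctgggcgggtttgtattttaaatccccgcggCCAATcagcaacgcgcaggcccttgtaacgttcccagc
Mad2l1: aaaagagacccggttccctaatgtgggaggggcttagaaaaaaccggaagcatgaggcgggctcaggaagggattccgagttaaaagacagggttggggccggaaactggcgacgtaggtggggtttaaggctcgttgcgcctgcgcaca
Pttg1: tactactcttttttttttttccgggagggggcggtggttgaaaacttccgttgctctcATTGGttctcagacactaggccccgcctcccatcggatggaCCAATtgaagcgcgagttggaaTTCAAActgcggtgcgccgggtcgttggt
Ndc80: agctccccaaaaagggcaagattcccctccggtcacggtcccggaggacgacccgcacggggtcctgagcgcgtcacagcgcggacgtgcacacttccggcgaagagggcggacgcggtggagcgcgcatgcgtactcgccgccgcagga
Bub1: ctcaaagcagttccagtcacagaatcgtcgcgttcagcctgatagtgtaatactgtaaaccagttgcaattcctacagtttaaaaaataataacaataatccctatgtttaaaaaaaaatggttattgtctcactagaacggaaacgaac

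In GRCr8 these stretches are chr1:143659331-143659480 (plus strand) for Prc1, chr1:186147508-186147657 (plus strand) for Plk1 and chr4:97236359-97236508 (plus strand) for Mad2l1. Those of the highest members are chr10:28406327-28406476 (minus strand) for Pttg1, chr9:118887530-118887679 (minus strand) for Ndc80 and chr3:135504922-135505071 (minus strand) for Bub1. Prc1 and Pttg1 carry both motifs within the printed bases although they lie on opposite sides of the group. In Plk1, Mad2l1 and Ndc80 a TTTGAA match lies beyond the printed bases, starting 6, 27 and 33 bases after the start site, and Bub1 has neither motif in its window. TTTGAA sat close to the start: 25 of its 30 matches in members began no more than 100 bases before it or within the window after it (83.3%), against 41.4% of 7118 matches in all promoters. CCAAT matches had no such bias, at 50% of 62 matches in members and 49.2% of 17626 in all. Members with and without TTTGAA had median differences between the arrays of 0.29 (14 measured members) and 0.22 (5) on the log2 scale. They ran from -0.67 to 0.68 and from 0.05 to 0.86. Members with and without CCAAT had medians of 0.27 (14) and 0.28 (5). Those with 2 or more CCAAT had 0.34 (12), and those with at most 1 had 0.14 (7). A link between motifs and differences was not tested.

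Differences are sevoflurane minus control in log2 units, after each array's 75th percentile of signal over probes was subtracted. At that percentile the sevoflurane array was dimmer, with 359 intensity units against 692 on the control array. That is a shift of -0.95, which the scaling removes. At the median over all probes the sevoflurane array was slightly brighter, with 51.7 against 46.6 on the control array. The difference between the arrays thus depended on signal level, which a shift common to all probes does not remove. Every measured member probe had a single spot per array, so the only error available is the one that the scanner software gives for a spot. It came to 0.20 to 0.21 for a member's difference. It was nearly the same for dim and bright members, is not a spread measured between repeats, and leaves out differences between cultures and hybridisations. Over 237 genes with several measured probes, the probes of a gene differed by a median of 0.17 and by 1.53 at the 90th percentile.

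With that scaling, the mitosis and G2/M genes were close to the array as a whole and close to each other. Of 23 measured members, 2 were at least 2-fold higher on the sevoflurane array, Aurkb and Ube2c, where 28.2% of all 10028 measured genes were. Both were close to that limit, at 2.07-fold and 2.04-fold. None (0) was at least 2-fold lower, where 11.2% of all measured genes were. The members had a median of 0.28, against 0.27 over all measured genes, and ran from -0.67 to 1.05. Their interquartile range was 0.37, against 1.57 over all measured genes. Most members are bright: 21 of 23 lay among the brighter 5014 measured genes, whose median was -0.06, whose interquartile range was 1.06, and of which 10.9% were at least 2-fold higher and 13.3% at least 2-fold lower. At 1.5-fold, 5 members were higher and 1 lower, where 38.8% and 20% of all measured genes were. In a bulk RNA sample, a change in the share of dividing cells and a change in mRNA per cell cannot be told apart.

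**Figure D1:**
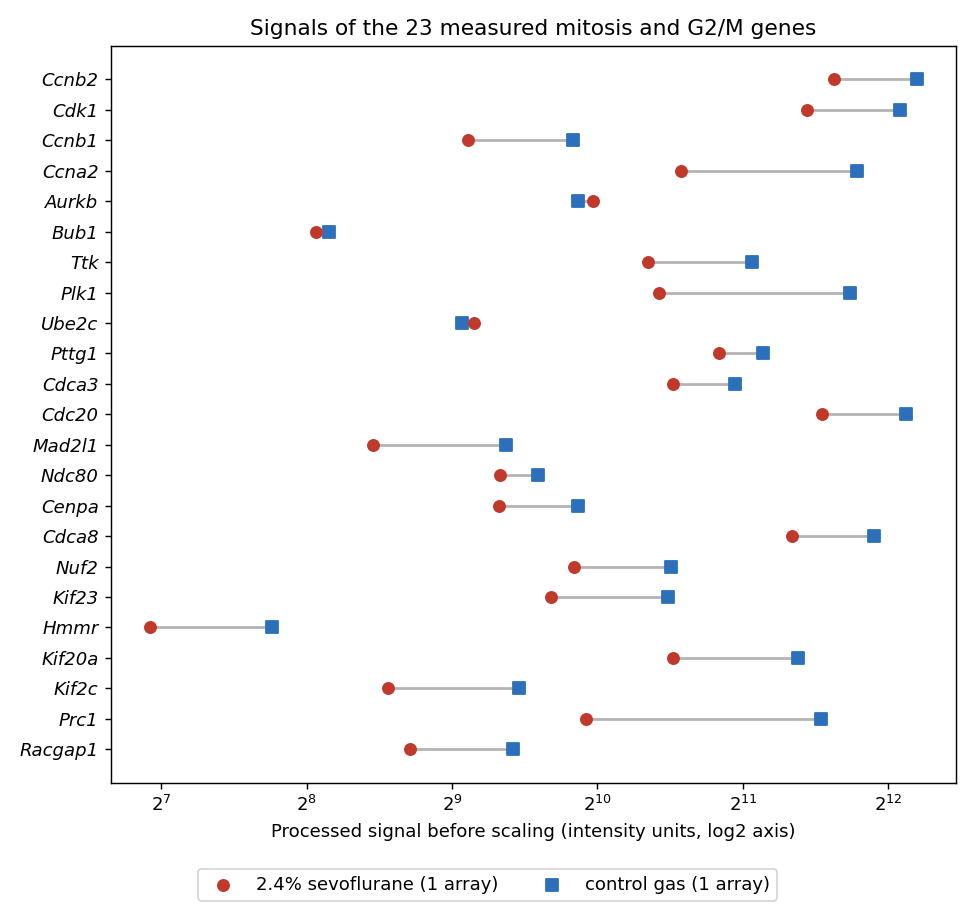
Processed signal of each measured member before scaling (log2 axis, intensity units), with red circles for the sevoflurane array and blue squares for the control array, 1 array each. In 21 of 23 members the circle lies left of the square, and in Aurkb and Ube2c it lies slightly to the right.

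Before scaling, 21 members had a lower signal on the sevoflurane array and 2 a higher one, as the plot of signals shows. The sign of a member's difference therefore turns on how the arrays are brought to one scale, while the difference between any 2 members is untouched by a shift common to all probes.

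Among the cyclins and their kinase, Cdk1, the kinase that triggers mitosis, had a signal of 2775 in sevoflurane cells and 4322 in control cells, a scaled difference of 0.31. Ccnb1, its main cyclin partner at mitotic entry, had 551 in sevoflurane cells and 912 in control cells, a difference of 0.22. Kinase and cyclin lay 0.09 apart, within the software error of 0.29 for such a comparison. Ccnb2, the second B-type cyclin, had 3156 in sevoflurane cells and 4699 in control cells, a difference of 0.37. Ccna2 encodes cyclin A2, which acts in S phase as well as G2 and is destroyed before the B cyclins. It had 1522 in sevoflurane cells and 3527 in control cells, a difference of -0.27. Ccna2 and Ccnb2 thereby moved unequally, by 0.64 (0.37 to 0.64 over the 11 settings tried). Most of these settings cannot change the difference between 2 members, here or in the comparisons below.

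Mitotic kinases covered most of the members' range. Aurkb, the kinase of the chromosomal passenger complex that corrects faulty attachments, had 1002 in sevoflurane cells and 932 in control cells, the highest difference of the members at 1.05. Bub1, a checkpoint kinase at kinetochores, had 267 in sevoflurane cells and 284 in control cells, a difference of 0.86. Ttk, the kinase that starts the spindle checkpoint and recruits Bub1, had 1303 in sevoflurane cells and 2135 in control cells, a difference of only 0.23. Plk1, the Polo-like kinase needed for centrosome maturation and cytokinesis, lay at the other end: 1371 in sevoflurane cells and 3406 in control cells, a difference of -0.37.

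Aurka, which matures centrosomes and activates Plk1, was well above background only on the sevoflurane array, with a signal of 15.5 there and 7.90 on the control array. Under the scaling used the ratio of the 2 levels was 3.78-fold, with a software error of 0.44 in log2 units. The control signal was not well above background, so this ratio is neither a measured fold nor a lower limit. It ran from 1.77 to 3.78 with scalings that shift all probes alike and was 2.02 after normexp. Under quantile normalization and with the deposited values it was 0.56 and 0.68, since the control level was then the higher one.

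The 5 measured members grouped under the checkpoint and the ubiquitin machinery that ends mitosis were all on the positive side under this scaling. That does not hold for the machinery as a whole. Of 12 measured anaphase-promoting complex genes in the further list described below, 6 were above 0 and 6 below. Ube2c, the E2 enzyme that works with the anaphase-promoting complex, had 569 in sevoflurane cells and 538 in control cells, a difference of 1.03. Cdc20, the activator of that complex, had 2991 in sevoflurane cells and 4452 in control cells, a difference of 0.37, so that enzyme and activator moved unequally by 0.65. Pttg1, the securin that shields cohesin until it is degraded, had 1829 in sevoflurane cells and 2255 in control cells, a difference of 0.64. Cdca3, which promotes mitotic entry through degradation of the Wee1 kinase, had 1465 in sevoflurane cells and 1969 in control cells, a difference of 0.52. Mad2l1, the checkpoint protein that holds Cdc20 inactive, was almost level after scaling, with 352 in sevoflurane cells and 662 in control cells and a difference of 0.03.

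The 4 measured centromere, kinetochore and passenger genes lay between 0.28 and 0.68. Ndc80 had 642 in sevoflurane cells and 772 in control cells, a difference of 0.68. Nuf2, which forms a heterodimer with the Ndc80 protein at the outer kinetochore, had 916 in sevoflurane cells and 1452 in control cells, a difference of 0.28. These obligate partners were 0.40 apart, little more than the software error of 0.29. Cenpa, the histone variant that marks centromeres, had 640 in sevoflurane cells and 932 in control cells, a difference of 0.40. Cdca8, the borealin subunit of the passenger complex, had 2592 in sevoflurane cells and 3830 in control cells, a difference of 0.38. Its complex partner Aurkb was 0.67 higher than it in that comparison (0.67 to 0.78 over the 11 settings).

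**Figure D2:**
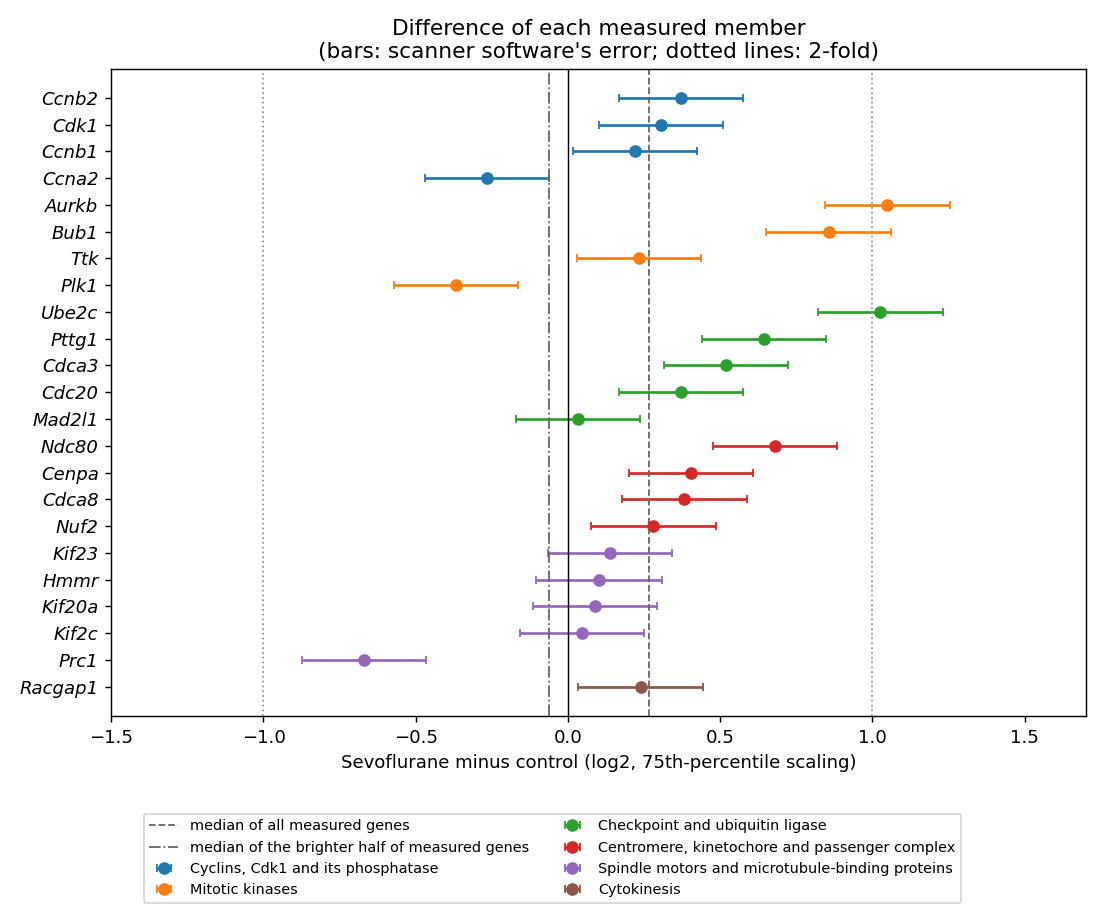
Difference of each measured member, sevoflurane minus control in log2 units, grouped and coloured by role, with bars for the scanner software's error and dotted lines at 2-fold. The points run from -0.67 for Prc1 to 1.05 for Aurkb, and the 5 spindle genes all lie left of the members' median of 0.28.

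Genes of spindle motors and microtubule-binding proteins had the lowest median of the members' roles, at 0.09, with only Prc1 below 0. Prc1, which bundles antiparallel microtubules in the central spindle, had 968 in sevoflurane cells and 2967 in control cells, a difference of -0.67. Kif20a, the kinesin that carries the passenger complex to that structure, had 1470 in sevoflurane cells and 2663 in control cells, a difference of 0.09. Kif23, the motor of the centralspindlin complex, had 821 in sevoflurane cells and 1437 in control cells, a difference of 0.14. Racgap1, the only measured member listed here under cytokinesis, is the subunit that pairs with Kif23. It had 418 in sevoflurane cells and 683 in control cells, a difference of 0.24. The centralspindlin subunits were therefore 0.10 apart, well within the software error. Kif2c, a kinesin that depolymerises microtubules at centromeres, was the one member with more than 1 probe. Its brighter probe had 378 in sevoflurane cells and 706 in control cells (difference 0.05), and its other probe had 366 in sevoflurane cells and 692 in control cells (difference 0.03), so the probes matched closely. Hmmr, a spindle-assembly protein also known as a hyaluronan receptor, had 121 in sevoflurane cells and 218 in control cells, a difference of 0.10. It was the only member to turn negative after quantile normalization, at -0.35, and after the intensity-dependent correction, at -0.21.

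All 5 measured spindle genes were below the median of the members, and in the 11 settings tried 4 or 5 of them were. Most of these settings shift all members alike, or nearly so, and are therefore no check of that order. Their median lay 0.19 to 0.29 below that of all members over these settings, whereas that of the kinetochore and passenger genes lay 0.07 to 0.13 above it. Prc1 and Aurkb, the extremes, differed from each other by 1.72 (1.68 to 1.75 over the settings). The software error for that comparison was 0.29, which holds no spread between cultures or hybridisations. These pairs of members were chosen after their values were seen. Nusap1 and Tpx2, both spindle-assembly proteins, were not well above background on either array, with signals of 9.66 and 8.46 in sevoflurane cells and 6.91 and 2.18 in control cells, and get no fold.

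**Figure D3:**
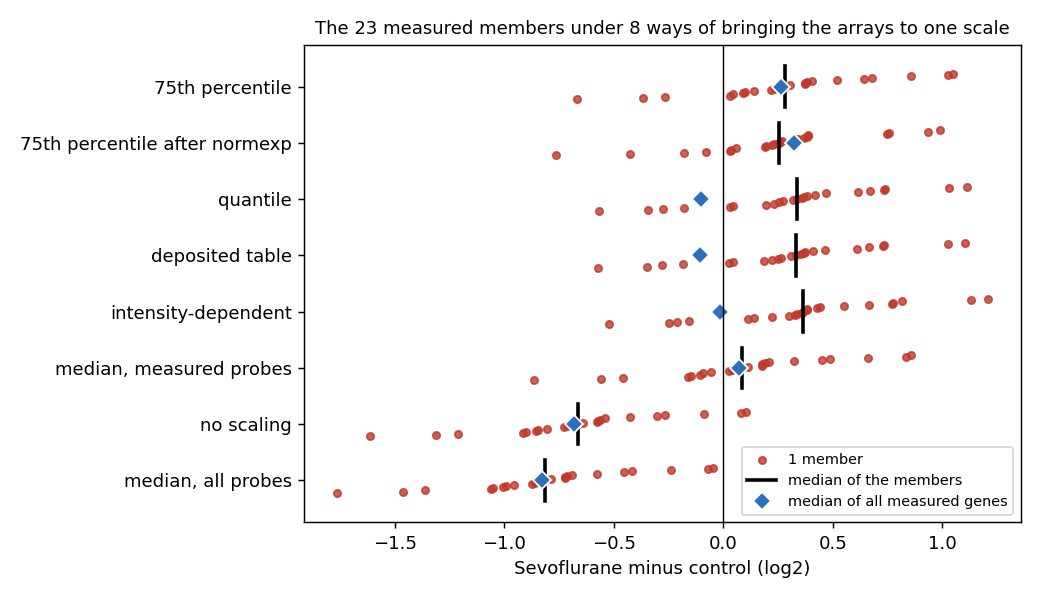
The 23 measured members (red points, 1 per gene) under 8 ways of bringing the arrays to one scale, with a black bar for the members' median and a blue diamond for the median of all measured genes, in log2 units of sevoflurane minus control. The members' median runs from -0.81 to 0.36, and the blue diamond lies well to its left under quantile normalization, in the deposited table and under the intensity-dependent correction, and slightly to its right after normexp.

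The position of the members against the rest of the array depended on how level was handled. With scalings that shift all probes alike, their median was 0.02 above that of all measured genes. After quantile normalization it was 0.34, against -0.10 for all measured genes. The intensity-dependent correction, which removes the trend of the difference with signal, gave 0.36 for the members, against -0.01 for all. In the deposited table it was 0.33, against -0.10. The members lay below all measured genes after normexp, at 0.26 against 0.32, and without a filter on dim probes, at 0.34 against 0.78. Under quantile normalization, the intensity-dependent correction and the deposited table, 2 members were at least 2-fold higher and 0 lower. Of all genes, 13.6%, 14.8% and 13.6% were higher under these 3 settings and 19.6%, 15.8% and 19.2% lower. Without any scaling the members' median was -0.67, against -0.68 for all measured genes, and 3 members (Prc1, Plk1 and Ccna2) were at least 2-fold lower, where 38.1% of all genes were (12.6% were higher). With median scaling over all probes 6 members were lower and 0 higher, where 43.5% and 10.5% of all genes were. After normexp 0 members passed 2-fold either way, where 23.1% of all genes were higher and 8.45% lower, and likewise with median scaling over measured probes, where 24.3% were higher and 14.7% lower. Without a filter on dim probes 26 members could be compared, and the 3 dim ones joined Aurkb and Ube2c to make 5 at least 2-fold higher and 0 lower, where 46.1% and 8.69% of all genes were.

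The wider machinery was described with a further list of 155 G2/M and mitosis genes, of which 102 were measured. Of these, 18 (17.6%) were at least 2-fold higher and 4 (3.92%) lower, where 28.2% and 11.2% of all measured genes were, with a median of 0.24 and an interquartile range of 0.77. Genes that restrain or permit entry from G2 held 5 of the higher and 1 of the lower ones among 18 measured (median 0.52), and their 27.8% higher is near the share over all measured genes. The 23 spindle, centrosome and motor genes held 3 higher and 0 lower (median 0.16). Unlike among the members, spindle genes did not have the lowest median of the roles in this list. Chromosome structure genes had 0.05 (17 measured), and genes for transcription of G2/M genes had -0.17 (8 measured). Chek2, the checkpoint kinase that answers DNA double-strand breaks, had 1149 in sevoflurane cells and 43.7 in control cells, a difference of 5.66 (4.35 after normexp). Cenpi, a subunit of the constitutive centromere network, had 4163 in sevoflurane cells and 418 in control cells, a difference of 4.26. Cenpq, another subunit of that network, was higher by 2.88. Cenpi and Cenpq were the 2 highest of 24 measured kinetochore and centromere genes of this list, whose median was 0.29 and of which 19 lay within 2-fold. Each gene of the further list named here and in the next paragraph rests on 1 measured probe, except Pds5b. Anapc1, the largest subunit of the anaphase-promoting complex, had 3461 in sevoflurane cells and 445 in control cells, a difference of 3.90, while the median of the 12 measured subunits and regulators of that complex was -0.01. Cdca5, the sororin that protects cohesin, was higher by 3.55 (1.94 after normexp), and Cit, the citron kinase of the cleavage furrow, by 2.58, both with control signals under 15 units (14.5 and 14.2). Cit came to 1.08 after the intensity-dependent correction and to 0.999 in the deposited table, where it was no longer 2-fold higher.

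On the lower side, Ccng2, an unconventional cyclin linked to cell cycle arrest, had 196 in sevoflurane cells and 1264 in control cells, a difference of -1.74. Cenpc, which links centromeric chromatin to the kinetochore, was at -1.46. The cohesin regulator Pds5b was at -1.30 on its brighter probe, and the cohesin subunit Smc3 at -1.06 (-0.92 after the intensity-dependent correction and -0.98 after quantile normalization, no longer 2-fold). Gadd45a, a stress-induced gene that can hold cells in G2, was named after its value was seen. It had 2362 in sevoflurane cells and 842 in control cells, a difference of 2.43, and was positive in all 11 settings (1.34 to 2.59).

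**Figure D4:**
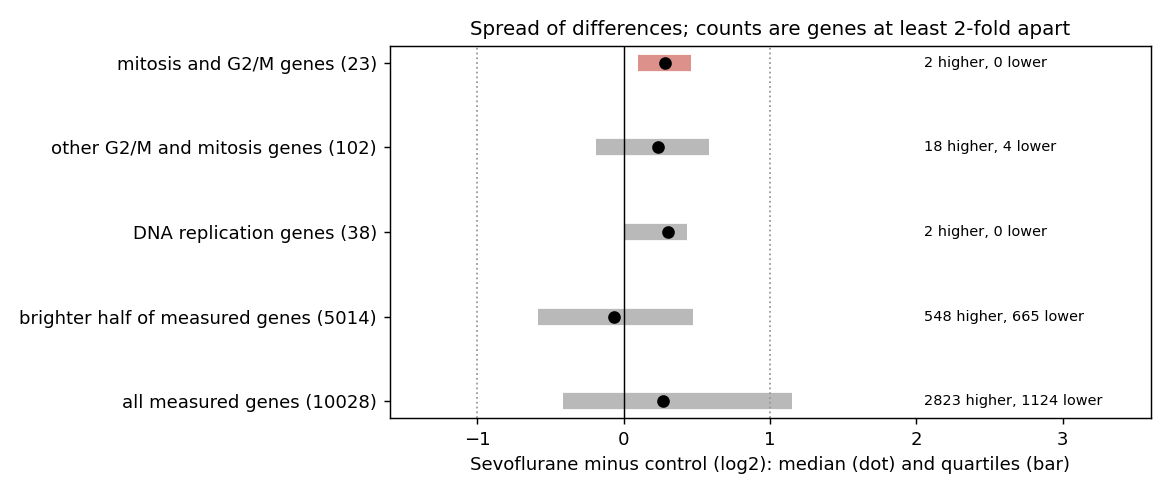
Median (dot) and quartiles (bar) of sevoflurane minus control in log2 units for the members, the further G2/M list, the DNA replication genes, the brighter part of the measured genes and all measured genes, with the number measured in brackets. The members' bar, from 0.10 to 0.46, is the shortest, and the counts at the right give genes at least 2-fold higher and lower.

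DNA replication genes, which act just before the members in the cycle, had similar quartiles. Of 38 measured, 2 (5.26%) were at least 2-fold higher and 0 lower, where 28.2% and 11.2% of all measured genes were. Their median was 0.30 and their interquartile range 0.43, but their highest value was 5.76 and their SD over genes 0.97, against 0.41 for the members.

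Of 24629 usable probes, 16047 exceeded background on both arrays, 4491 in sevoflurane cells only and 396 in control cells only. All 11 neural stem cell markers were measured, including Nes, Sox2, Vim and Fabp7, with a summed signal of 36906 in sevoflurane cells and 55933 in control cells, which after scaling is a difference of 0.35. Of them 3 were at least 2-fold higher and 1 lower (27.3% and 9.09%, where 28.2% and 11.2% of all measured genes were), and the named ones went both ways, at 1.28 for Nes, 0.93 for Vim, -0.83 for Sox2 and -0.45 for Fabp7. Of other cell types, 4 of 6 measured microglial markers and 5 of 8 neuronal markers were at least 2-fold lower (66.7% and 62.5%), where 11.2% of all measured genes were. The summed signals were 1159 in sevoflurane cells and 11259 in control cells for microglia, and 18578 in sevoflurane cells and 83700 in control cells for neurons. All 6 red cell markers were at least 2-fold higher, where 28.2% of all measured genes were, with summed signals of 51166 in sevoflurane cells and 17737 in control cells. Among the rest, 2 of 5 measured astrocyte, 2 of 6 oligodendrocyte-lineage, 3 of 4 mesenchymal and 2 of 2 endothelial markers were at least 2-fold higher, and 1, 1, 0 and 0 at least 2-fold lower. The oligodendrocyte-lineage share of 33.3% higher is near that of all measured genes. Astrocyte markers summed to 568 in sevoflurane cells and 3199 in control cells (-1.55 after scaling), oligodendrocyte-lineage markers to 1535 in sevoflurane cells and 2555 in control cells (0.21), mesenchymal markers to 9039 in sevoflurane cells and 13075 in control cells (0.41), and endothelial markers to 102 in sevoflurane cells and 31.8 in control cells (2.64). The microglial markers Cx3cr1 and Itgam were not well above background on both arrays. The part of these cell types in the members' values was not tested. Each array had its own scan day, which cannot be told apart from the group.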

How the data were processed

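RNA of 2 samples, 1 per group, was hybridised to single-colour (Cy3) arrays. The deposited scanner files hold spot intensity from Agilent Feature Extraction 11.0.1.1, background-corrected by that software per the file headers and not scaled between arrays. A deposited value table of 24529 rows was read as log2 intensity, from its correlation with the log2 scanner signals (0.991 for sevoflurane, 0.993 for control). Its program and centring are not given in the sources used here. Its column medians are 5.61 (sevoflurane) and 5.60 (control), and both columns have the same highest value, 16.3. The members' median in it, 0.33, was close to the 0.34 after quantile normalization, so these 2 settings should not be counted as separate checks.

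Control spots and flagged spots (521 from sevoflurane and 580 from control, of 42136 each) were left out. After log2 of the processed signal, spots were averaged by probe, and each array's 75th percentile over probes was subtracted. A probe was measured when most of its spots were well above background on both arrays, and no spot was saturated. Depth does not apply to arrays; their number limits the precision. Accessions without versions were matched to the RefSeq gene table (GRCr8), which named 14248 of 15293 RefSeq mRNA probes. The array design refers to another build (rn4), so array probes get no coordinates. A gene was represented by its brightest measured probe.

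With 1 array per group no test was made. Calls are differences of at least 2-fold. The members and lists were chosen with earlier results of these data known. All members were described. Of the further list, up to 6 genes at least 2-fold apart in each direction were named. Alternatives were quantile normalization, median scaling, an intensity-dependent (lowess) correction, normexp, the deposited table, no filter on dim probes, flagged spots kept and a mean over probes. The planned column for normexp (offset 50) was not used, and the median spot signal took its place. The calculation was tested on simulated data (Python 3.11.15, numpy 2.4.6, pandas 2.3.3, statsmodels 0.14.6). The simulated arrays differed by a common factor, noise and known folds in some probes. That test therefore does not bear on the choice of scaling.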

Additional observations from a re-analysis of the deposited data

How the results depend on the processing

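The direction of the members as a group rests on the scaling. Their median of 0.28 became -0.81 with median scaling over all probes and -0.67 with no scaling between arrays, which was chosen after seeing the data. Aurkb and Ube2c, at 1.05 and 1.03, were at -0.046 and -0.069 with median scaling over all probes. The count of members at least 2-fold higher, 2, was 0 with median scaling over all probes, after normexp, with median scaling over measured probes (also chosen after seeing the data) and without scaling, and 5 with no filter on dim probes or at 1.5-fold. The count at least 2-fold lower, 0, was 6 with median scaling over all probes, 3 without scaling and 1 at 1.5-fold. Of the further G2/M list, 18 higher and 4 lower became 8 and 44 with median scaling over all probes and 9 and 36 without scaling, and 11 were lower with median scaling over measured probes. Quantile normalization, the intensity-dependent correction and the deposited table each turned the sign of 1 member (Hmmr) and normexp that of 1 (Kif2c). Median scaling over measured probes turned the sign of 5 members (Mad2l1, Kif2c, Kif20a, Hmmr and Kif23). The construction of these scalings, a constant shift of all probes, accounts for the members that turned sign together with median scaling or without scaling. No paired analysis was possible because each group has 1 array. Signals near background, as for Aurka, Nusap1 and Tpx2, limit what can be said of those genes.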
